A study of Mus musculus with 18 samples.

Results

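The 10 genes described here are *Socs1*, *Socs2*, *Socs3*, *Cish*, *Jak1*, *Jak2*, *Stat3*, *Stat5a*, *Pim1* and *Pim2*, chosen by name for their place in cytokine signaling and found in the count tables by Entrez gene number. They are 10 of the 28096 genes counted, and all 10 were among the 14161 genes with enough reads to be tested. Their mRNA was measured by RNASeq in 18 libraries of splenic B cells from C57BL/6 N mice at least 8 weeks old. WT and *Ubqln1*-/- cells were left resting, treated with F(ab)2 fragments of anti-IgM at 10 μg/mL, which crosslink the B cell receptor (BCR), or treated with LPS from *E. coli* K12 at 20 μg/mL, which activates Toll-like receptor 4, and were collected after 4 hr. Each of these 6 groups had 3 libraries, replicates 1 to 3, and each library held the pooled RNA of triplicate wells. The *Ubqln1*-/- mice lack exon 2 of *Ubqln1* in every tissue, because the exon was removed in embryonic stem cells, and the labels name no engineered allele for the WT mice. Ubiquilin-1 is a cytosolic chaperone that handles hydrophobic and ubiquitinated proteins.

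Cytokine receptors without kinase domains of their own rely on Janus kinases (JAKs) bound to their tails. Once a cytokine joins the receptor chains, the JAKs phosphorylate STAT proteins, which pair, enter the nucleus and activate genes. Among these target genes are the SOCS family, whose members bind JAKs or receptors through an SH2 domain and bring in a ubiquitin ligase through the SOCS box, so that the signal shuts itself off. *Pim1* and *Pim2*, which encode serine/threonine kinases that support growth and survival of lymphocytes, are further STAT targets. NF-κB, which acts downstream of both LPS and BCR crosslinking in B cells, also induces them.

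The libraries held between 15368941 and 41072854 counted reads, with a median of 23257531. With LPS the WT libraries (28590363 to 41072854 reads) were deeper than the *Ubqln1*-/- ones (17224952 to 27515442), without overlap. The level of *Ubqln1* itself, as RPKM (reads scaled to the exonic length of the gene and to library size), was 62.3 to 92.0 in the 9 WT libraries and 24.8 to 34.8 in the 9 *Ubqln1*-/- libraries, as a value over all exons counted, the deleted one not set apart. The 6 markers of B cells summed to between 2200 and 8370 CPM (reads scaled to library size) and were all present in every group, at 2200 to 2830 with anti-IgM, 5460 to 6580 with LPS and 6910 to 8370 at rest in WT cells. The 6 T cell markers summed to 31.9 to 223 CPM, were highest with anti-IgM and consisted almost wholly of *Lck* (30.7 to 222 CPM). The 6 macrophage markers were highest at rest, at 20.1 to 45.0 CPM, against 9.99 to 18.4 CPM after either stimulus. Of them *Adgre1* ranged from 4.66 to 39.5 CPM over the 18 libraries, and no other exceeded 6.82 CPM (*Lyz2*). The 4 dendritic cell markers were highest with LPS, at 40.0 to 67.3 CPM, against 11.1 to 17.7 CPM at rest, and came mostly from *Flt3* and *Zbtb46*. The NK cell, neutrophil and erythroid lists stayed at or below 3.16 CPM and the platelet list between 4.17 and 7.37 CPM. What part the changes in these lists had in the results below was not tested, and in such bulk samples fewer cells of a type and less RNA per cell cannot be told apart.

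At rest the 10 mRNAs covered a wide range of levels. In resting WT cells *Jak1* was highest, with a mean of 198 RPKM, and above every value of the next gene. *Stat3* (77.0 RPKM), *Pim1* (70.4 RPKM) and *Jak2* (57.1 RPKM) followed, and their neighbors in this order overlapped in range. *Pim2* (24.9 RPKM) and *Stat5a* (13.9 RPKM) came next, each apart from its neighbors. The SOCS family was at the bottom, with *Socs1* at 6.13 RPKM, *Socs3* at 3.05 RPKM, *Cish* at 0.844 RPKM and *Socs2* at 0.502 RPKM, and no overlap between neighbors. The *Ubqln1*-/- cells had the same order at rest, except that *Cish* and *Socs2* overlapped. The low genes rest on few reads, with 25 to 145 counts per library for *Socs2*, 24 to 230 for *Cish*, 28 to 773 for *Socs3* and 116 to 258 for *Socs1*, while *Jak1* had at least 11238.

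**Figure D1:**
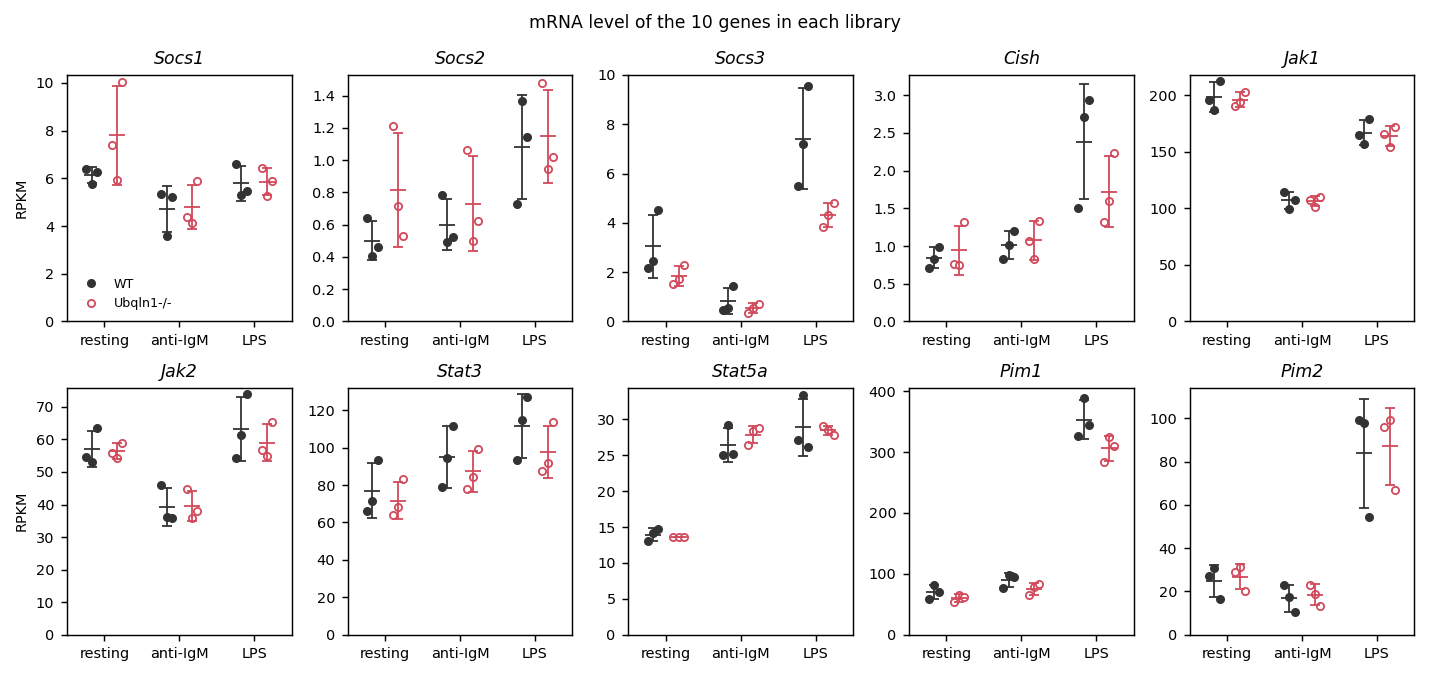
RPKM of each of the 10 genes (vertical axis from 0, a scale of its own per panel) in resting, anti-IgM-treated and LPS-treated cells. Points are single libraries in the order of replicates 1 to 3, filled for WT and open for *Ubqln1*-/-, and bars are the mean and SD (n = 3). *Pim1* and *Pim2* stand high only in the LPS libraries, *Stat5a* is raised with either stimulus, and *Socs3* is lowest with anti-IgM and highest with LPS.

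After 4 hr of anti-IgM, the genes split by direction. In both genotypes *Stat5a* rose (1.90-fold in WT and 2.05-fold in *Ubqln1*-/- cells) and *Pim1* slightly, while *Socs3* fell most and *Jak1* and *Jak2* fell less. In WT cells 5 of the 10 genes had an adjusted p under 0.05, 2 higher and 3 lower. This call applied to 64.6% of all tested genes (32.4% higher and 32.2% lower), so the share among the 10 was near that of the whole transcriptome. In *Ubqln1*-/- cells 6 of the 10 passed, 2 higher and 4 lower, beside 65.3% of all genes (32.9% higher and 32.4% lower). The median log2 fold change of the 10 was -0.06 in WT and -0.34 in *Ubqln1*-/- cells, and -0.01 and -0.02 over all genes. With the replicate number as a block in the model, 8 of 10 passed in WT cells, 3 higher and 5 lower, beside 69.9% of all genes, and 8 in *Ubqln1*-/- cells, beside 70.7%.

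LPS mostly raised these mRNAs. In WT cells 8 of 10 passed, with *Socs2*, *Socs3*, *Cish*, *Stat3*, *Stat5a*, *Pim1* and *Pim2* higher and *Jak1* lower, beside 61.2% of all tested genes (31.2% higher and 30.1% lower). In *Ubqln1*-/- cells 7 passed, the same genes without *Socs2*, beside 60.7% of all genes (30.6% higher and 30.2% lower). The median log2 fold change of the 10 was 1.09 in WT and 0.67 in *Ubqln1*-/- cells, against -0.01 and -0.02 over all genes. At the thresholds used in the study, a log2 fold change beyond 2.0 and an adjusted p under 0.001, *Pim1* was the 1 gene of the 10 that passed with LPS in each genotype (1.8% of all genes in WT and 1.74% in *Ubqln1*-/- cells), and 0 passed with anti-IgM (3.76% and 3.64%).

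The stimuli were then compared with each other directly. The estimate was higher with LPS than with anti-IgM for all 10 genes in each genotype, although not all passed the test. In WT cells 6 were higher with LPS, *Socs3*, *Cish*, *Jak1*, *Jak2*, *Pim1* and *Pim2*, beside 32.4% of all genes called in either direction and 17.4% called higher. In *Ubqln1*-/- cells 5 were higher, the same without *Cish*, beside 31.3% and 16.8% of all genes. At the thresholds of the study 2 passed in WT cells, *Socs3* and *Pim2*, and *Pim1* joined them in *Ubqln1*-/- cells, where 3 passed (2.51% and 2.24% of all genes).

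**Figure D2:**
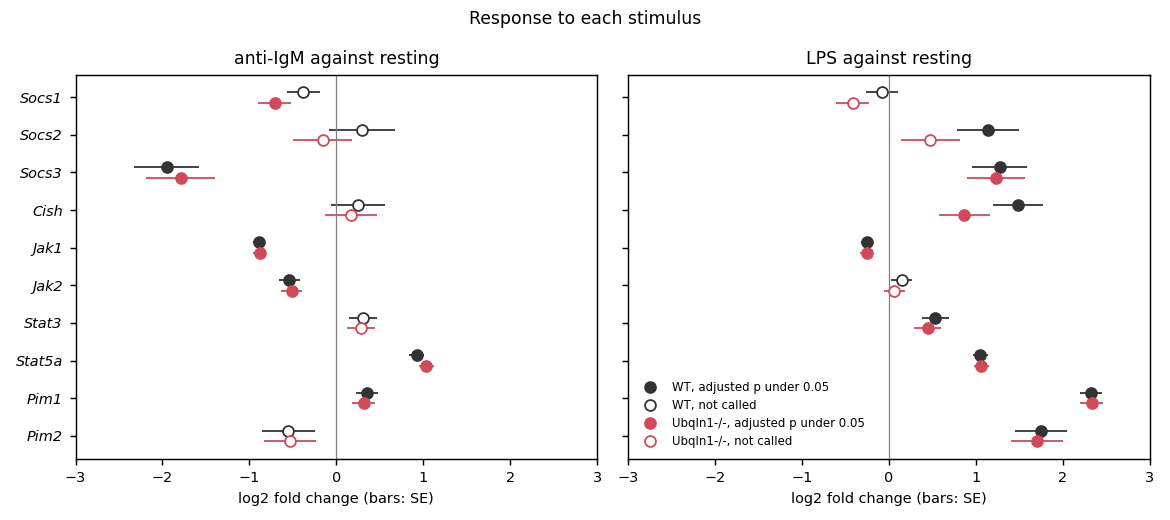
Log2 fold change against resting cells (horizontal axis, bars are the SE) for anti-IgM at left and LPS at right, with WT in black and *Ubqln1*-/- in red, and filled points for an adjusted p under 0.05. The estimates of the 2 genotypes lie close together for the JAK, STAT and PIM genes, and the bars are long for *Socs2*, *Socs3*, *Cish* and *Pim2* and short for *Jak1* and *Stat5a*.

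*Socs3*, an inhibitor that binds gp130-type receptors and their JAKs, had the widest swing of the SOCS family. Its gene lies on chromosome 11, from 117966079 to 117970336 of GRCm38. In WT cells its RPKM in replicates 1, 2 and 3 was 2.18, 2.45 and 4.52 at rest. It was 0.482, 0.541 and 1.43 with anti-IgM and 5.47, 7.19 and 9.55 with LPS, so the 3 conditions did not overlap. The *Ubqln1*-/- libraries held 1.51, 1.72 and 2.28 at rest, 0.341, 0.562 and 0.718 with anti-IgM and 3.83, 4.31 and 4.80 with LPS, again without overlap. With anti-IgM *Socs3* fell by 1.95 ± 0.37 on the log2 scale in WT cells (SE, n = 3, adjusted p = 0.000211), a 3.87-fold decrease, and fell by 1.79 ± 0.40 in *Ubqln1*-/- cells (adjusted p = 0.00081). With LPS it rose by 1.27 ± 0.32 (adjusted p = 0.00226) and 1.23 ± 0.34 (adjusted p = 0.00449). The level with LPS was thus 9.36-fold that with anti-IgM in WT cells (log2 3.23 ± 0.36, adjusted p = 2.2e-06) and 8.12-fold in *Ubqln1*-/- cells (log2 3.02 ± 0.38, adjusted p = 9.38e-06).

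*Cish*, the SOCS family member best known as an early target of STAT5, sits on chromosome 9 from 107296659 to 107302784. Its RPKM in WT cells was 0.710, 0.829 and 0.991 at rest, 0.831, 1.02 and 1.20 with anti-IgM and 1.51, 2.71 and 2.93 with LPS. Among *Ubqln1*-/- libraries it was 0.767, 0.746 and 1.32 at rest, 1.06, 0.826 and 1.33 with anti-IgM and 1.32, 1.60 and 2.24 with LPS. The anti-IgM values overlapped the resting ones in each genotype. The LPS values lay above the resting ones, in *Ubqln1*-/- cells by a small margin, and there the lowest of them (1.32) was below the highest anti-IgM value (1.33). *Cish* rose with LPS by 1.49 ± 0.29 on the log2 scale in WT cells (adjusted p = 0.000281), a 2.80-fold increase. Its rise in *Ubqln1*-/- cells was 0.87 ± 0.29 (adjusted p = 0.0178), and without resting replicate 1, resting replicate 2 or LPS replicate 3 of that genotype the call was lost. With anti-IgM the difference was 0.25 ± 0.31 in WT and 0.17 ± 0.30 in *Ubqln1*-/- cells, neither of which passed. Between LPS and anti-IgM it was 1.24 ± 0.28 in WT cells (adjusted p = 0.00219) and 0.69 ± 0.28 in *Ubqln1*-/- cells (adjusted p = 0.0758, and 0.00705 with the replicate block).

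The promoters of these genes were searched for the palindrome that STAT dimers bind, TTCNNNGAA. Of the 10 genes, 9 had a RefSeq start site window (GRCm38.p6, 250 bases before to 50 after the start), 11 windows in all, and *Socs2* had none. The motif, which reads the same on both strands, was in 8.3% of 32851 windows of all genes, and 0.457% held it at least 2 times. Of the 9 genes *Cish* held it 2 times, at bases 1 to 9 and 12 to 20 after its start, and *Socs3* held it once, at bases -154 to -146 from its start. The stretch of *Cish* below is chr9:107296654-107296683 on the plus strand, and the stretch of *Socs3* is chr11:117969367-117969616 on the minus strand, the 250 bases before the start used here, which lies inside the gene span given above and is not its outermost start. They are shown with capitals for the motif, and *Socs3* and *Cish* were called in the LPS comparison of either genotype. So were *Jak1*, *Stat3*, *Stat5a*, *Pim1* and *Pim2*, whose windows hold no such motif.
Cish: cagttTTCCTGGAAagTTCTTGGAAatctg
Socs3: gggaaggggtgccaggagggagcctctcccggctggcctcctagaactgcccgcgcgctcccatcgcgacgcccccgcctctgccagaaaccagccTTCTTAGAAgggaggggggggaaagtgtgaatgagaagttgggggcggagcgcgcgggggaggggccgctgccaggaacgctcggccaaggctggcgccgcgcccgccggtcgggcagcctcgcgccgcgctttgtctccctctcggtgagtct

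In the same windows the wider spacing TTCNNNNGAA (6.95% of all windows, same on both strands), which STAT6 prefers, and the AP-1 motif TGANTCA (7.81%, both strands) were found in none of the 9 genes. The cAMP response motif TGACGTCA (1.79%, same on both strands) was found once, in *Jak1* at bases -101 to -94, and the EGR motif GCGNGGGCG (5.55%, both strands) once, in *Socs3* at bases -181 to -173. These are matches of letters within a short window.

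*Socs1*, which inhibits JAK kinase activity directly and restrains interferon signaling, is on chromosome 16 from 10783808 to 10785536. In WT cells its RPKM was 6.39, 5.75 and 6.25 at rest, 5.33, 3.60 and 5.23 with anti-IgM and 6.62, 5.29 and 5.46 with LPS. Among *Ubqln1*-/- libraries it was 7.42, 5.94 and 10.0 at rest, 4.39, 4.13 and 5.87 with anti-IgM and 6.43, 5.27 and 5.89 with LPS. Every anti-IgM value was below every resting value of its genotype, and the resting *Ubqln1*-/- libraries spread widest. *Socs1* fell with anti-IgM in *Ubqln1*-/- cells, by 0.71 ± 0.19 on the log2 scale (adjusted p = 0.00349). In WT cells the difference was -0.38 ± 0.19 (adjusted p = 0.0985, and 0.0217 with the replicate block). With LPS it was -0.08 ± 0.19 in WT and -0.42 ± 0.19 in *Ubqln1*-/- cells (adjusted p = 0.069, and 0.0184 with the replicate block). The response in *Ubqln1*-/- less that in WT cells was -0.33 ± 0.27 for anti-IgM and -0.34 ± 0.27 for LPS, neither past the test.

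The balance of *Socs1* to *Socs3*, whose lengths the RPKM takes into account, shifted with the stimulus. In WT cells *Socs1* was 1.38 to 2.94 times *Socs3* at rest, 3.66 to 11.1 times with anti-IgM and 0.571 to 1.21 times with LPS. The ratio in *Ubqln1*-/- cells was 3.45 to 4.92 at rest, 7.36 to 12.9 with anti-IgM and 1.22 to 1.68 with LPS. *Socs3* exceeded *Socs1* in some LPS-treated WT libraries and in no other group. These ratios are a description of levels, with no test.

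*Socs2*, a regulator of growth hormone receptor signaling on chromosome 10 from 95383903 to 95417321, was the lowest of the 10 in most groups. Its RPKM was 0.404 to 0.640 at rest, 0.491 to 0.784 with anti-IgM and 0.730 to 1.37 with LPS in WT cells. The ranges in *Ubqln1*-/- cells were 0.528 to 1.21, 0.499 to 1.06 and 0.947 to 1.48, and all 3 overlapped. *Socs2* rose with LPS in WT cells by 1.14 ± 0.35 on the log2 scale (adjusted p = 0.0106), a call lost without resting replicate 2 or LPS replicate 2. The difference in *Ubqln1*-/- cells was 0.47 ± 0.34 (adjusted p = 0.24). The difference between these responses was -0.66 ± 0.49 and did not pass. Between LPS and anti-IgM it was 0.85 ± 0.34 in WT cells (adjusted p = 0.066, and 0.0164 with the replicate block) and 0.63 ± 0.34 in *Ubqln1*-/- cells (adjusted p = 0.173).

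Both kinase genes fell with anti-IgM, and *Jak1* also fell with LPS. *Jak1*, on chromosome 4 from 101151974 to 101265282, serves receptors of interferons, IL-6 and the common γ chain. Its RPKM in WT cells was 195, 186 and 213 at rest, 115, 99.3 and 107 with anti-IgM and 165, 157 and 179 with LPS. The *Ubqln1*-/- values were 190.3, 194 and 203 at rest, 107, 102 and 110.0 with anti-IgM and 166, 154 and 172 with LPS. The 3 conditions were separate in each genotype, in the order resting, LPS, anti-IgM. *Jak1* fell with anti-IgM by 0.89 ± 0.07 on the log2 scale in WT cells (adjusted p = 1.62e-08) and by 0.88 ± 0.07 in *Ubqln1*-/- cells (adjusted p = 1.79e-08), a decrease of 1.85-fold and 1.84-fold. With LPS it fell by 0.25 ± 0.07 (adjusted p = 0.00576) and 0.26 ± 0.07 (adjusted p = 0.00458), and the call in WT cells was lost without resting replicate 3. A neighboring gene, *Raver2*, overlaps the end of *Jak1* and had at most 15 reads in a library.

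*Jak2*, which serves receptors of IL-3, GM-CSF and interferon γ, is on chromosome 19 from 29251803 to 29313095. Its RPKM ranged from 53.2 to 63.4 at rest, 35.7 to 45.9 with anti-IgM and 54.3 to 73.8 with LPS in WT cells. The ranges in *Ubqln1*-/- cells were 54.4 to 59.0, 36.0 to 44.7 and 54.8 to 65.5. With anti-IgM it fell by 0.54 ± 0.12 in WT cells (adjusted p = 0.000868) and by 0.51 ± 0.12 in *Ubqln1*-/- cells (adjusted p = 0.00136), and the ranges did not overlap. With LPS the difference was 0.15 ± 0.12 and 0.06 ± 0.12, neither of which passed, and the ranges overlapped the resting ones. *Jak1* was 3.35 to 3.57 times *Jak2* in resting libraries of either genotype and 2.40 to 3.03 times in stimulated ones, without overlap.

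The 2 STAT genes are neighbors on chromosome 11. *Stat5a* runs from 100859351 to 100885169 and *Stat3* from 100886806 to 100939594, with 1636 bases between them. *Stat5a* encodes a factor downstream of IL-2, IL-7 and GM-CSF receptors. Its RPKM in WT cells was 13.0, 14.1 and 14.7 at rest, 25.0, 29.2 and 25.1 with anti-IgM and 27.1, 33.4 and 26.1 with LPS. The *Ubqln1*-/- values were 13.6, 13.7 and 13.6 at rest, 26.5, 28.4 and 28.8 with anti-IgM and 29.0, 28.5 and 27.8 with LPS. Every stimulated library was above every resting one, and the stimuli overlapped in WT cells and in *Ubqln1*-/- cells. *Stat5a* rose with anti-IgM by 0.92 ± 0.08 on the log2 scale in WT cells (adjusted p = 6.65e-08) and by 1.03 ± 0.08 in *Ubqln1*-/- cells (adjusted p = 1.98e-08). With LPS it rose by 1.05 ± 0.08 (adjusted p = 3.33e-08) and 1.06 ± 0.08 (adjusted p = 2.85e-08). The difference between LPS and anti-IgM was 0.13 ± 0.08 in WT and 0.03 ± 0.08 in *Ubqln1*-/- cells and did not pass. *Stat5b*, its close paralog, could share reads with it, and fell with either stimulus in WT cells, by 0.39 ± 0.10 with anti-IgM (adjusted p = 0.00274) and by 0.49 ± 0.10 with LPS (adjusted p = 0.000446).

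*Stat3*, the main factor downstream of IL-6, IL-10 and IL-21 receptors, changed less than *Stat5a*. In WT cells its RPKM was 66.1, 71.3 and 93.6 at rest, 78.9, 94.7 and 112 with anti-IgM and 93.2, 115 and 127 with LPS. Among *Ubqln1*-/- libraries it was 64.1, 68.0 and 83.0 at rest, 78.0, 84.5 and 99.4 with anti-IgM and 87.3, 91.9 and 113 with LPS. Replicate 3 was the highest in all 6 groups and replicate 1 the lowest. *Stat3* rose with LPS by 0.53 ± 0.16 on the log2 scale in WT cells (adjusted p = 0.00821) and by 0.44 ± 0.16 in *Ubqln1*-/- cells (adjusted p = 0.0241), the latter lost without resting replicate 1, resting replicate 2 or LPS replicate 3. With anti-IgM the difference was 0.30 ± 0.16 in WT cells (adjusted p = 0.107) and 0.28 ± 0.16 in *Ubqln1*-/- cells (adjusted p = 0.131). With the replicate block the SE of these anti-IgM differences was 0.05 and the adjusted p 3.57e-05 and 7.41e-05. The block also took the differences between LPS and anti-IgM, 0.23 ± 0.16 and 0.16 ± 0.16 without it, to an adjusted p of 0.000982 in WT and 0.018 in *Ubqln1*-/- cells.

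*Pim1*, on chromosome 17 from 29490785 to 29496111, had the greatest rise of the 10 with LPS. Its RPKM in WT cells was 59.5, 82.1 and 69.8 at rest, 76.6, 98.4 and 94.3 with anti-IgM and 326, 389 and 344 with LPS. Among *Ubqln1*-/- libraries it was 53.4, 66.0 and 62.8 at rest, 64.5, 78.7 and 83.2 with anti-IgM and 284, 325 and 309 with LPS. The LPS libraries stood far above the others, while resting and anti-IgM libraries overlapped in each genotype. With LPS *Pim1* rose 5.01-fold in WT cells (log2 2.32 ± 0.13, adjusted p = 1.69e-09) and 5.04-fold in *Ubqln1*-/- cells (log2 2.33 ± 0.13, adjusted p = 1.81e-09). With anti-IgM it rose by 0.35 ± 0.13 on the log2 scale (adjusted p = 0.0236) and 0.31 ± 0.13 (adjusted p = 0.0398), and each of these calls was lost without resting replicate 1 or 3 or anti-IgM replicate 2 or 3 of its genotype. With only the resting and anti-IgM libraries of WT cells in the fit, its adjusted p was 0.0503. *Pim1* went from 0.304 to 0.44 times the level of *Jak1* in resting WT cells to 1.93 to 2.48 times with LPS, which made it the highest of the 10. The ratio in *Ubqln1*-/- cells went from 0.281 to 0.34 at rest to 1.71 to 2.11 with LPS.

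The 250 bases before the upstream of the *Pim1* start sites in RefSeq, chr17:29490535-29490784 on the plus strand, are shown because this gene had the largest response to LPS. They hold 82.4% G and C and none of the motifs searched.
Pim1: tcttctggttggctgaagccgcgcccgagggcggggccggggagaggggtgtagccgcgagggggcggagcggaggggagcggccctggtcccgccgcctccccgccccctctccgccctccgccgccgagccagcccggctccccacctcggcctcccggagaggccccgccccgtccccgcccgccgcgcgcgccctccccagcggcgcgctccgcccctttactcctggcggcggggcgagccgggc

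*Pim2*, on chromosome X from 7878306 to 7883432, rose with LPS as well. Its RPKM in WT cells was 27.1, 31.0 and 16.7 at rest, 22.8, 17.6 and 10.4 with anti-IgM and 99.1, 97.8 and 54.5 with LPS. Among *Ubqln1*-/- libraries it was 28.8, 31.5 and 20.2 at rest, 22.9, 19.1 and 13.5 with anti-IgM and 95.8, 99.0 and 66.7 with LPS. Replicate 3 was the lowest of its group in all 6 groups, yet every LPS library lay above every other library. With LPS *Pim2* rose 3.36-fold in WT cells (log2 1.75 ± 0.30, adjusted p = 9.47e-05) and 3.25-fold in *Ubqln1*-/- cells (log2 1.70 ± 0.30, adjusted p = 0.000125). With anti-IgM the difference was -0.55 ± 0.31 (adjusted p = 0.123) and -0.53 ± 0.30 (adjusted p = 0.132), while with the replicate block it was -0.57 ± 0.10 (adjusted p = 8.43e-05) and -0.55 ± 0.10 (adjusted p = 0.000106). Between LPS and anti-IgM it was 4.93-fold in WT cells (log2 2.30 ± 0.31, adjusted p = 1.6e-05) and 4.70-fold in *Ubqln1*-/- cells (log2 2.23 ± 0.31, adjusted p = 2.38e-05). *Pim1* exceeded *Pim2* in all 18 libraries, by 1.85 to 9.09 times.

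Between genotypes none of the 10 passed the adjusted test in edgeR in any condition. All tested genes gave calls in 0.0565% of cases at rest, 0.0989% with anti-IgM and 0.0424% with LPS. At an unadjusted p under 0.05 there was 1 of the 10 at rest (4.22% of all genes) and 1 with LPS (3.93%), in each case *Socs3*, and 0 with anti-IgM (5.14%). limma with voom and DESeq2 also called 0 in each condition. With the replicate block *Socs3* was called with LPS, 1 of the 10 beside 0.883% of all genes, and 0 of the 10 at rest (0.346%) or with anti-IgM (0.664%).

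*Socs3* was lower in *Ubqln1*-/- than in WT cells by estimate in each condition, with a log2 difference of -0.74 ± 0.34 at rest, -0.57 ± 0.43 with anti-IgM and -0.78 ± 0.31 with LPS. Their adjusted p-values were 1, 0.997 and 1. Without WT replicate 3 the anti-IgM difference was 0.05. The LPS libraries did not overlap, at 3.83 to 4.80 RPKM in *Ubqln1*-/- and 5.47 to 9.55 RPKM in WT cells, whereas those at rest and with anti-IgM did. How many of all tested genes do not overlap between genotypes was not counted. Of the 9 pairs of libraries with the same condition and replicate number, 8 had less *Socs3* in the *Ubqln1*-/- library. The exception was replicate 2 with anti-IgM, at 0.562 against 0.541 RPKM. The 9 pairs hold the same 3 replicate numbers in each condition, so they are not independent. Counts of such pairs were not taken over all genes. With the replicate block the LPS difference was -0.75 ± 0.14 (adjusted p = 0.0175).

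*Pim1* was lower in the *Ubqln1*-/- library in 9 of 9 pairs and *Stat3* in 9 of 9 as well, again pairs that are not independent. The share of all genes that reach such counts is not known, for these genes and for *Pim2* below. For *Pim1* the log2 difference was -0.22 ± 0.13 at rest, -0.25 ± 0.13 with anti-IgM and -0.20 ± 0.12 with LPS, that is, 1.15-fold to 1.19-fold. These did not pass. The LPS ranges, 284 to 325 RPKM in *Ubqln1*-/- and 326 to 389 RPKM in WT cells, nearly touched but did not overlap. As for *Socs3*, the share of all genes that separate in this way was not counted. The block gave -0.25 ± 0.06 with anti-IgM (adjusted p = 0.0564). For *Stat3* the difference was -0.10 ± 0.16, -0.12 ± 0.16 and -0.19 ± 0.16, with overlapping ranges in each condition, and without WT replicate 3 it was 0.05 at rest and 0.0072 with anti-IgM. *Pim2* leaned the other way, higher in the *Ubqln1*-/- library in 8 of 9 pairs, at 0.10 ± 0.30, 0.13 ± 0.30 and 0.06 ± 0.29.

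None of the remaining genes passed either. *Jak1* was measured most tightly, and its genotype difference was -0.02 ± 0.07 at rest, -0.01 ± 0.07 with anti-IgM and -0.03 ± 0.07 with LPS. *Stat5a* differed by -0.04 ± 0.08, 0.08 ± 0.08 and -0.02 ± 0.08, and *Jak2* by -0.02 ± 0.12, 0.01 ± 0.12 and -0.10 ± 0.12. *Cish* differed by -0.47 ± 0.27 with LPS, by 0.15 ± 0.32 at rest and by 0.07 ± 0.29 with anti-IgM. *Socs2* differed by 0.73 ± 0.37 at rest, 0.28 ± 0.35 with anti-IgM and 0.07 ± 0.32 with LPS. It was higher in the *Ubqln1*-/- library in 7 of 9 pairs, again with no count over all genes. *Socs1* differed by 0.35 ± 0.19 at rest, where the *Ubqln1*-/- library was higher in 3 of 3 pairs, by 0.02 ± 0.19 with anti-IgM and by 0.01 ± 0.19 with LPS.

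The response to a stimulus also did not differ by genotype for any of the 10 at an adjusted p under 0.05 in edgeR. In these tests of interaction 0% of all genes were called, with 140 genes (0.989%) at an unadjusted p under 0.05 for anti-IgM and 220 (1.55%) for LPS, and 0 of the 10 among either. voom and DESeq2 called 0 of the 10. The response of *Pim1* to LPS in *Ubqln1*-/- less that in WT cells was 0.01 ± 0.18 on the log2 scale, that of *Stat5a* 0.01 ± 0.12 and that of *Jak1* to anti-IgM 0.0047 ± 0.10. Wider errors went with -0.62 ± 0.41 for *Cish*, -0.04 ± 0.46 for *Socs3* and -0.05 ± 0.42 for *Pim2* with LPS.

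**Figure D3:**
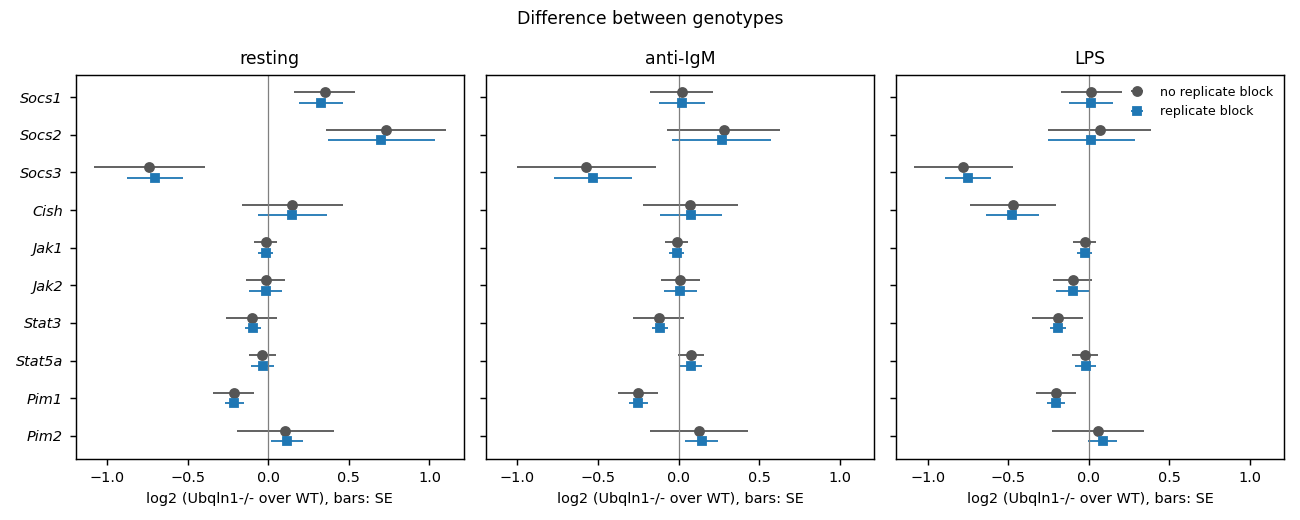
Log2 ratio of *Ubqln1*-/- to WT (horizontal axis, bars are the SE) in resting, anti-IgM-treated and LPS-treated cells, in gray without and in blue with the replicate number as a block. *Jak1* and *Stat5a* lie at 0 with short bars, and *Socs3* and *Pim1* lie left of 0 in all 3 panels, with bars that the block shortens.

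A large part of the spread within groups followed the replicate number. *Pim2* in replicate 3 was below its group mean in 6 of 6 groups, by 0.48 on the log2 CPM scale on average, and replicates 1 and 2 were above it in 6 of 6. *Socs3* went the opposite way, with replicate 3 above the mean in 6 of 6 groups (by 0.49) and replicate 1 below in 6 of 6. *Stat3* and *Cish* in replicate 3 were likewise above in 6 of 6 groups, by 0.23 and 0.35. *Pim1* in replicate 2 was above and in replicate 1 below in 6 of 6. *Jak1* in replicate 2 was below and in replicate 3 above in 6 of 6, but its values moved little, between -0.07 and 0.06 on average. How many of all tested genes keep to 1 side in 6 of 6 groups was not counted.

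**Figure D4:**
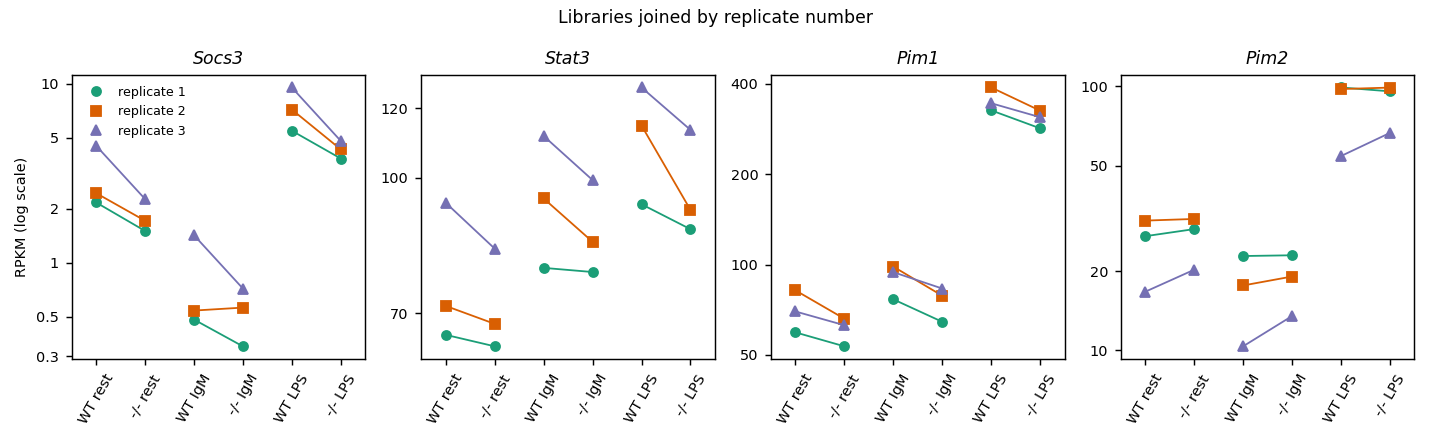
RPKM on a log scale of *Socs3*, *Stat3*, *Pim1* and *Pim2* in the 6 groups, with lines that join the WT and *Ubqln1*-/- library of the same condition and replicate number. The lines of *Stat3* and *Pim1* all slope down and keep nearly the same order of replicates, and replicate 3 is highest for *Socs3* and *Stat3* and lowest for *Pim2* in all 6 groups.

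Genes with the most similar pattern were found by the root mean square difference of log2 CPM, each gene centered on its own mean, over the 18 libraries and 9102 genes with enough reads. *Stat5a* had the closest neighbors, *Krr1* at 0.065 and *Champ1* at 0.0695, where its own root mean square around the mean was 0.487. *Jak1* was closest to *Cyld* (0.0808) and *Foxj2* (0.0843), and *Jak2* to *Rasa4* (0.115) and *Chd2* (0.127). *Stat3* was closest to *Clock* (0.121) and *Sqstm1* (0.128), and *Socs1* to *Brd9* (0.167) and *Tacc1* (0.18). *Pim1* was closest to *Gadd45b* (0.21), an NF-κB target, and *Sowahc* (0.235), with its own spread at 1.05. *Pim2* was closest to *Fcer2a* (0.254), which encodes the low-affinity IgE receptor CD23, and *Lyst* (0.305), and *Fcer2a* was also below its group mean in replicate 3 in 6 of 6 groups. *Cish* was closest to *Cd274* (0.208), which encodes PD-L1, and *Syngr2* (0.249), *Socs3* to *Tmcc3* (0.429) and *Nid1* (0.436), and *Socs2* to *Cacnb3* (0.29) and *Adam8* (0.309).

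Among the other 12 SOCS, JAK, STAT and PIM genes, all 12 were called with anti-IgM in WT cells, 4 higher and 8 lower, with a median of -0.40 on the log2 scale, beside 64.6% of all tested genes (32.4% higher and 32.2% lower) and a median of -0.01 over all of them. The counts in *Ubqln1*-/- cells were again 4 and 8, beside 65.3% of all genes called (32.9% higher and 32.4% lower). *Pim3*, the remaining PIM kinase, rose 2.32-fold in WT cells (log2 1.22 ± 0.09, adjusted p = 8.88e-09) from 22.8 to 53.1 RPKM, while *Stat2*, a factor of type I interferon signaling, fell 2.25-fold and *Stat4* 1.93-fold. With LPS 4 of 12 rose and 1 fell in WT cells, where 61.2% of all genes were called. In *Ubqln1*-/- cells 3 rose and 2 fell, where 60.7% of all genes were called. *Pim3* rose 2.24-fold, so that *Pim1* and *Pim2* differed between the stimuli where *Pim3* reached 53.1 RPKM with anti-IgM and 51.2 RPKM with LPS in WT cells. *Stat6*, the IL-4 factor, rose by 0.67 ± 0.05 with LPS in WT cells (adjusted p = 1.62e-08).

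The 12 other inhibitors of the pathway were called about as often as all tested genes. With anti-IgM 2 rose and 5 fell in WT cells, beside 64.6% of all genes, and 3 rose and 5 fell in *Ubqln1*-/- cells, beside 65.3%. *Pias3*, an inhibitor of STAT3, fell by 1.13 ± 0.10 (adjusted p = 2.84e-08) and *Ptprc*, the phosphatase CD45, by 0.89 ± 0.10 (adjusted p = 4.01e-07). *Ptpn2*, a phosphatase of JAK1 and STATs, rose by 0.53 ± 0.06 (adjusted p = 3.17e-07). With LPS 3 rose and 5 fell in each genotype, beside 61.2% of all genes in WT and 60.7% in *Ubqln1*-/- cells. *Usp18*, an inhibitor of the type I interferon receptor, rose 7.49-fold with LPS in WT cells (log2 2.91 ± 0.33, adjusted p = 1.2e-06). In *Ubqln1*-/- cells *Usp18* rose by 1.73 ± 0.32 (adjusted p = 0.000207). The difference between these responses, -1.17 ± 0.46, did not pass (adjusted p = 1). A further list held 6 elongin, cullin and RING protein genes of ubiquitin ligases, not all of them from the ligase that the SOCS box recruits. Of these 6, 4 rose with anti-IgM and 4 with LPS in WT cells and 0 fell, where 32.4% and 31.2% of all genes were called higher. Among them *Eloc* (elongin C) rose by 0.42 ± 0.07 and 0.55 ± 0.07 and *Cul5* by 0.41 ± 0.05 and 0.46 ± 0.05. In *Ubqln1*-/- cells 5 of the 6 rose with anti-IgM and 6 of the 6 with LPS, where 32.9% and 30.6% of all genes were called higher.

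Upstream, of the 25 receptor chains that use JAKs 8 rose and 9 fell with anti-IgM in WT cells, a share near the 64.6% of all genes called. With LPS 7 rose and 5 fell, beside 61.2% of all genes. *Il10ra*, the IL-10 receptor chain that works through JAK1 and STAT3, fell 6.23-fold with anti-IgM from 58.0 to 9.32 RPKM (log2 -2.64 ± 0.17, adjusted p = 2.08e-09). *Il2ra*, the α chain of the IL-2 receptor, rose 4.94-fold with anti-IgM and 8.69-fold with LPS, from 8.74 to 43.1 and 75.9 RPKM, and *Il7r* rose 5.32-fold with anti-IgM. *Il21r* rose 2.01-fold with LPS, from 107 to 215 RPKM. Of 21 ligands of these receptors only 9 had enough reads to be tested, and the other 12, among them *Il2*, *Il4*, *Il7*, *Il21* and *Csf2*, had at most 13 reads in any library. With LPS 6 of the 9 rose and 1 fell in each genotype, where 31.2% of all genes in WT and 30.6% in *Ubqln1*-/- cells were called higher. The median of the 9 was 2.19 in WT cells, against -0.01 over all genes. Those that rose included *Ebi3*, a subunit of IL-27 and IL-35 (9.56-fold in WT cells, from 4.73 to 45.5 RPKM), *Il12b* (7.44-fold) and *Il10* (4.58-fold, from 3.17 to 14.9 RPKM). With anti-IgM 1 rose and 2 fell, beside 64.6% of all genes called, with *Il12a* 2.00-fold lower (adjusted p = 0.00366).

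Downstream, 12 known STAT targets outside the 10 genes were counted. With LPS 9 rose and 0 fell in each genotype, with a median of 1.10 in WT and 1.04 in *Ubqln1*-/- cells, where 31.2% and 30.6% of all genes were called higher and their medians were -0.01 and -0.02. With anti-IgM 3 rose and 7 fell in each, with a median of -0.56 and -0.61, where 32.2% and 32.4% of all genes were called lower. *Myc* rose with either stimulus, 9.19-fold with anti-IgM and 8.68-fold with LPS in WT cells. *Isg15*, an interferon-induced modifier, rose 19.9-fold and *Bcl2l1*, which encodes the survival protein BCL-XL, 13.7-fold with LPS. In contrast *Gbp2*, an interferon-induced GTPase, fell 5.34-fold and *Bcl3* 3.61-fold with anti-IgM. *Irf9*, a DNA-binding partner of STAT2, was the only gene of all these lists with an adjusted p under 0.05 between genotypes, at -0.46 ± 0.08 in LPS-treated *Ubqln1*-/- against WT cells (adjusted p = 0.0439). Of 10 PIM substrates 3 rose and 6 fell with anti-IgM and 4 rose and 6 fell with LPS in WT cells, where 64.6% and 61.2% of all genes were called. The kinase targets *Cdkn1b*, a cell cycle inhibitor, and *Foxo1*, a factor of quiescence, fell 2.38-fold and 2.67-fold with anti-IgM, and *Cdkn1b* 2.20-fold and the chemokine receptor gene *Cxcr4* 2.63-fold with LPS.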

How the data were processed

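The authors aligned single-end reads of 50 bases from TruSeq RNA v2 libraries, a kit that does not keep strand, to GRCm38 with GSNAP, and deposited for each library the raw read count per Entrez gene, the exonic width of the gene and an RPKM value. The counting program and annotation release are not given in the sources used here. The counts as deposited were used for every test. The authors' RPKM column was read only to check its relation to the counts, and RPKM in the text was computed from the count, the deposited width and the TMM-scaled library size. Symbols, positions and start site windows came from RefSeq (GRCm38.p6), which named 89.11% of the genes. Because the kit keeps no strand, reads of the noncoding genes that overlap *Pim1*, *Stat3* and *Socs2* cannot be told apart from theirs.

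Groups came from the sample labels, and the samples without a number were taken as replicate 1 by elimination. edgeR 4.0.16 in R 4.3.3 was fitted over all 18 libraries with TMM normalization (factors 0.958 to 1.04), its expression filter, 1 term per group and the quasi-likelihood test. The biological coefficient of variation was 10.1%. All p-values were adjusted by the method of Benjamini and Hochberg across the 14161 genes, "called" means an adjusted p under 0.05, and the SE is the log2 fold change divided by the square root of F. Log2 CPM used a prior count of 2. The scripts were tested on simulated counts. The study describes the RNASeq as independent experiments, and the legends of the figures that show it name paired T tests. Whether the replicate numbers pair the libraries was checked by correlating deviations from the group means. The 45 pairs with the same number had a mean r of 0.266 and the 90 pairs with different numbers -0.132, and every pair exceeded 0.1 in 8 of the 9 pairwise comparisons (not between genotypes at rest). Values with the number as a block are therefore given beside the results whose call they change.

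The 10 genes and the gene lists were chosen with earlier results of these data known. From each list the text names up to 3 called genes per stimulus with the largest change in WT cells and a mean of at least 10 CPM, and any list gene called between genotypes. One gene that this rule selects is not reported here. *Stat5b* was added after its values were seen. For likeness the 2 nearest genes are named, among genes of at least 10 CPM. The alternatives were RLE normalization, limma 3.58.1 with voom, DESeq2 1.42.0, a filter that only asked for 1 read in total, a stricter one that asked for 10 reads per library, only the groups compared, the replicate block, the thresholds of the study and leaving out each of the 18 libraries. Figures and tables used Python 3.11.15, pandas 2.3.3 and matplotlib 3.10.9.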

Additional observations from a re-analysis of the deposited data

How the results depend on the processing

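With the replicate block the number of the 10 genes called went from 5 to 8 for anti-IgM in WT cells and from 0 to 1 between genotypes with LPS (*Socs3*). In *Ubqln1*-/- cells the number went from 6 to 8 for anti-IgM and from 7 to 8 for LPS. For LPS against anti-IgM it went from 6 to 8 in WT and from 5 to 7 in *Ubqln1*-/- cells, and for LPS in WT cells it stayed at 8. The block also raised the share of all genes called. With anti-IgM that share went from 64.6% to 69.9% in WT and from 65.3% to 70.7% in *Ubqln1*-/- cells. Between genotypes with LPS it went from 0.0424% to 0.883%. For LPS and for LPS against anti-IgM the share with the block is not given here, so those gains have no baseline. At rest, where the numbers do not pair every library, the block left 0 called between genotypes, and the interactions also stayed at 0. At the thresholds of the study the counts were 0 for anti-IgM in either genotype, 1 for LPS in either, and 2 (WT) and 3 (*Ubqln1*-/-) for LPS against anti-IgM. Over 1550 alternatives for single genes, 1511 left the call as it was, 21 gained a call and 18 lost one. No estimate called in either fit changed sign, while 101 estimates called in neither did, 99 of them with a library left out. Leaving out 1 library at a time gave 4 to 7 called for anti-IgM in WT and 5 to 6 in *Ubqln1*-/- cells, 7 to 8 and 5 to 7 for LPS, 6 to 7 and 5 to 6 for LPS against anti-IgM, and 0 for every genotype comparison and interaction. RLE normalization, voom, DESeq2, either filter and the fit of only the groups compared kept each count within 1.5 times. Leaving out WT anti-IgM replicate 1 or WT resting replicate 3 added calls for anti-IgM in WT cells of *Stat3* (0.43 and 0.47) and *Pim2* (-0.82 and -0.77), and the fit of only the groups compared added both in *Ubqln1*-/- cells (0.29 and -0.52). Without resting *Ubqln1*-/- replicate 2 *Socs1* was called with LPS (-0.57), and *Socs2* was called for LPS against anti-IgM without LPS or anti-IgM replicate 1 in WT cells (1.06 and 1.09) and without anti-IgM replicate 1 in *Ubqln1*-/- cells (1.03). The SE of the genotype differences of *Socs2*, *Cish*, *Socs3* and *Pim2*, up to 0.43 on the log2 scale, limits what could be detected.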
